A study of Saccharomyces cerevisiae with 12 samples.

Results

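Exponentially growing Saccharomyces cerevisiae was exposed for 2 h to 200 mg/L of the herbicide alachlor, and its transcripts were measured beside those of unexposed cells of the same experiment. The comparison used 6 of the 12 arrays of the series, chosen by their labels: 3 biological replicates with 200 mg/L, a dose that the submitters call the IC20, and 3 biological replicates of the controls without alachlor that belong to that dose (the IC20 controls). The other 6 arrays hold a separate experiment of the same layout, with 110 mg/L for 2 h (called the LOEC) against 3 controls of its own, and are used here only to show where the higher dose differed. Every group was strain BY4741 grown in minimal medium at pH 6.5 with shaking. BY4741, a laboratory strain, is haploid, has mating type a and carries deletions at HIS3, LEU2, MET17 and URA3, and these deletions are shared by treated and control cells. RNA was labelled with biotin and hybridised to Affymetrix Yeast Genome 2.0 arrays, on which each gene is read by a set of short probes, and the values are intensities in arbitrary units. Of 5716 probe sets, 5498 were tied to 1 gene, and 5449 genes were measured once each.

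Alachlor is a chloroacetanilide, a class of compound that in plants blocks the elongation of very long chain fatty acids and that is detoxified there by coupling to glutathione. Yeast cells meet foreign chemicals with a network of pumps and membrane proteins under the paired transcription factors Pdr1 and Pdr3, known as the pleiotropic drug resistance network, and with the factor Yap1, which switches on genes against oxidants and reactive electrophiles. Enzymes that reduce carbonyl and aldehyde groups and enzymes that transfer glutathione act beside the pumps. The plasma membrane, with its ergosterol and sphingolipids, and the mannoprotein wall outside it are the structures a lipophilic compound reaches first.

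The strain and the level of unspecific signal were checked first. Among the 7 genes expressed in mating type a cells, MFA1 and MFA2, which encode the a pheromone, and STE2, the receptor for the alpha pheromone, had control means of 16262 ± 243 (SD, n = 3), 21984 ± 481 and 16649 ± 773 intensity units. MF(ALPHA)1, the alpha pheromone gene, read 28.4 ± 2.83 in the controls, while SAG1, the alpha agglutinin, read between 1200 and 1831 on the 6 arrays and did not pass the test (adjusted p = 0.111). None of the 7 genes of mating type a was called by limma, nor did any reach an unadjusted p under 0.05. LEU2, MET17 and URA3, deleted in this strain, read at most 202.9 on the 6 arrays and at most 228.8 on all 12, and 202.9 is used below as the level under which a reading gives no amount of transcript. HIS3, deleted only in part, read 7325 ± 534 in the controls and 8816 ± 802 with alachlor (adjusted p = 0.124).

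Replicate arrays correlated with r between 0.9952 and 0.997 among the IC20 controls and between 0.9929 and 0.995 among the treated arrays. The median SD of log2 intensity over genes was 0.0823 in the controls and 0.0947 with alachlor, against 0.0559 and 0.0566 in the 110 mg/L experiment. Part of this spread followed the coding length of the genes. Spearman's rho across genes between an array's deviation from its group mean and coding length was 0.396, -0.464 and 0.182 on control arrays 1, 2 and 3, and -0.488, -0.155 and 0.570 on treated arrays 1, 2 and 3. In the 110 mg/L experiment the same measure stayed between -0.078 and 0.152 on every array. The long genes thus read low on control array 2 and treated array 1 and high on control array 1 and treated array 3. On treated array 3 the median deviation (log2) was -0.053 in the shortest of 5 equal groups of genes and 0.111 in the longest, and on treated array 1 it was 0.051 and -0.071. Deviations of 3 arrays from their own mean sum to 0, so opposite signs within a group follow from the measure. Results were computed again with each array's trend removed.

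**Figure D1:**
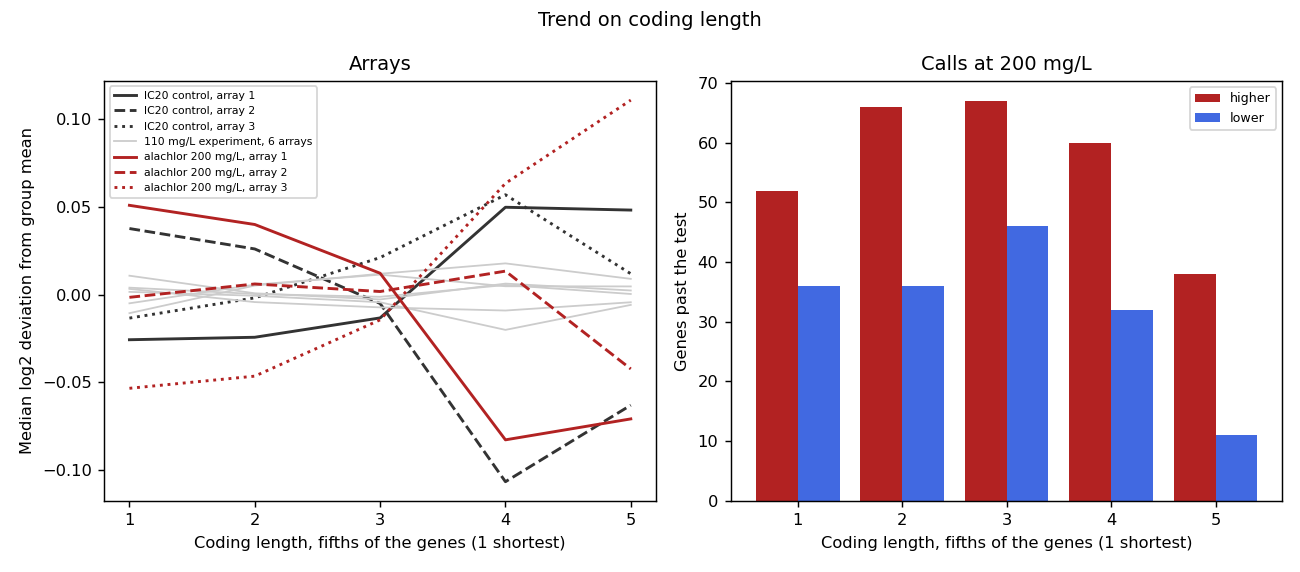
Left, the median log2 deviation of each array from its group mean in 5 equal groups of genes ordered by coding length, with the IC20 controls in black, the 200 mg/L arrays in red (arrays 1, 2 and 3 solid, dashed and dotted) and the 6 arrays of the 110 mg/L experiment in grey. Right, the number of genes higher (red) and lower (blue) at 200 mg/L in the same groups of genes; treated array 3 and control array 2 slope in opposite directions, and the group of longest genes holds the fewest calls, 38 higher and 11 lower.

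After 2 h at 200 mg/L, 444 of 5449 genes (8.15%) passed the test (limma on log2 intensity, 3 arrays against 3, adjusted p under 0.05), 283 of them higher (5.19%) and 161 lower (2.95%). At least a 2-fold change was seen for 46 of the higher and 8 of the lower genes, together 0.991% of all genes. A further 186 of the higher and 126 of the lower genes changed by less than 1.5-fold. For each of the 444 genes the 3 treated arrays lay on one side of the 3 controls, which was so for 30.8% of all genes (16.3% above and 14.5% below). Leaving out each array in turn kept 117 of the higher and 46 of the lower genes in all 6 fits, and 45 of the 46 rises and 7 of the 8 falls of at least 2-fold. The total fell to between 190, without control array 1, and 307, without treated array 1. It was 191 without treated array 2, 242 without control array 3, 254 without control array 2 and 282 without treated array 3. PDR5, PDR16, YGR035C, SNQ2, PDR3, PDR15, PDR18, HXT9, HXT11, BDH1, GPX2, KTR2, SLT2, YPS3, FET3, FET4, ARN1, SIT1, PHO84, SNO1, UGA1, GAP1, MMP1 and HSP12 were named after their values were seen. Calls lost in such fits are given beside the genes described. Counts of calls in the gene lists below stand beside 5.19% of all genes called higher and 2.95% called lower.

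The response as a whole leaned slightly on coding length, with rho = 0.170 across genes between log2 change and length. The median log2 change was -0.029 in the shortest of the 5 groups, with coding lengths of 51 to 660 bases, and 0.044 in the longest, with 2109 to 14733 bases. Of the genes in the longest group 4.5% were called, against 8.02% to 10.3% in the other 4 groups. With each array's trend removed, 694 genes (12.7%) were called (423 higher, 7.76%, and 271 lower, 4.97%), among them 270 of the 283 and 153 of the 161, and the spread between replicates is smaller there by construction. Among the genes called before removal, the one that moved most was URA2, the large protein that starts pyrimidine synthesis. Its log2 change of 0.43 became 0.34, and the gene stayed called.

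**Figure D2:**
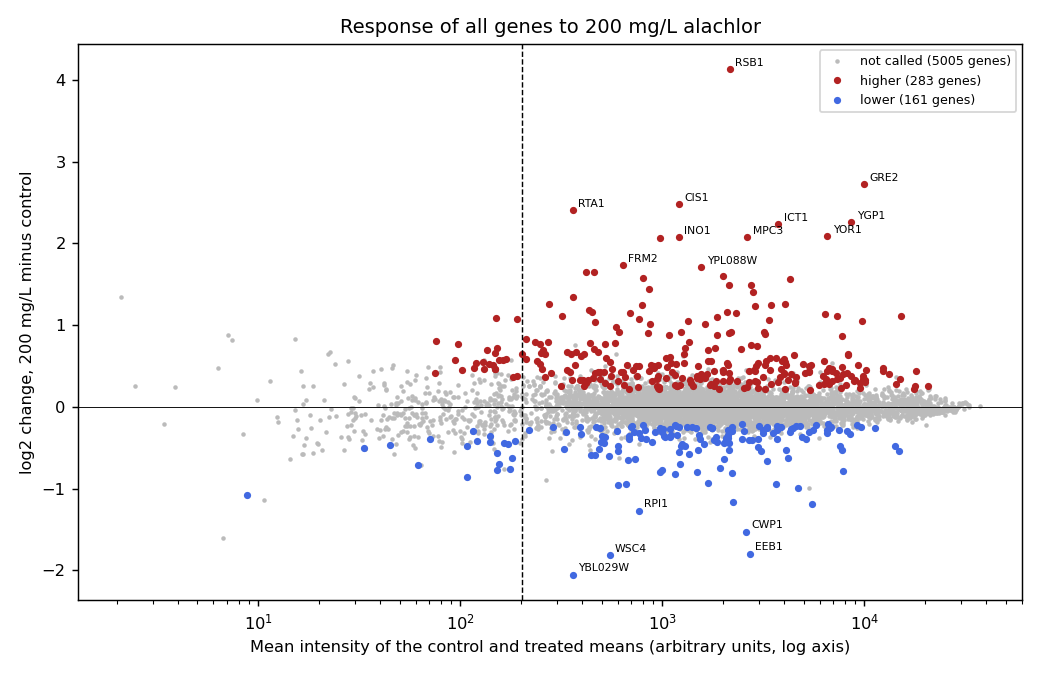
Each point is 1 gene, with the mean of its control and treated intensities on a log axis and its log2 change at 200 mg/L against the IC20 controls; red points rose (283 genes), blue points fell (161) and grey points did not pass the test. The dashed line at 202.9 is the highest reading of the deleted genes LEU2, MET17 and URA3; RSB1 stands above all other genes at 4.13, and among the falls measured above the line EEB1 lies at -1.80 and WSC4 at -1.82, while the fitted -2.06 of YBL029W rests on treated readings under it.

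The drug resistance network had the highest median of the 42 gene lists and held the gene with the largest rise, RSB1. Of 17 measured targets of Pdr1 and Pdr3, 14 rose, 11 of them in all 6 fits with an array left out, and the list's median log2 change was 1.11 beside 0.000 over all genes. RSB1, a membrane protein that moves sphingoid long-chain bases out of the cell, read 216, 239 and 242 in the controls and 4339, 4118 and 3737 with alachlor. The control readings sat just above the level of the deleted genes and the treated readings were all far above them, a 17.5-fold rise (log2 4.13 ± 0.077 SE, adjusted p = 1.19e-06). RTA1, of the same family of lipid-translocating membrane proteins, read 128, 99.4 and 117 in the controls, below the level of the deleted genes, and 638, 615 and 566 with alachlor. Its rise was at least 2.99-fold (adjusted p = 3.72e-05).

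Of the ATP-driven pumps of the network, YOR1, PDR5, SNQ2 and PDR10 rose and kept their calls in all 6 fits. YOR1, the exporter named for oligomycin resistance, went from 2544, 2386 and 2559 to 10336, 10009 and 11445, 4.24-fold (adjusted p = 1.22e-05). PDR5, the broad-range pump that names the network, read 9841, 9324 and 9524 in the controls and 20522, 20555 and 20955 with alachlor. The treated arrays were nearly equal and the rise was 2.16-fold (adjusted p = 4.14e-05). SNQ2, a related pump, rose 2.08-fold (adjusted p = 0.000222), and PDR10, a further member of the PDR5 family, rose from 1401, 1194 and 1285 to 2677, 2868 and 3129, 2.24-fold (adjusted p = 0.000389). PDR15, a close relative of PDR5, changed by only 0.38 on the log2 scale, and its call was lost without control array 2 (adjusted p = 0.0528) or control array 3 (adjusted p = 0.064).

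Lipid enzymes under the same factors moved with the pumps. ICT1, which acylates lysophosphatidic acid, went from 1223, 1281 and 1459 to 6462, 6115 and 5970, 4.69-fold (adjusted p = 1.7e-05), and PDR16, a phosphatidylinositol transfer protein, rose 2.40-fold (adjusted p = 5.51e-05). CIS1, a small protein, read 381, 351 and 372 in the controls and 2080, 2091 and 1974 with alachlor, 5.57-fold (adjusted p = 2.39e-06). YGR035C, of unknown function, rose 2.95-fold (adjusted p = 0.000134). The transcript of the activator PDR3 itself rose by 0.47 on the log2 scale, a call lost without control array 3 (adjusted p = 0.0501). IPT1, the last enzyme of sphingolipid synthesis, had a log2 change of 0.36 and was called in 1 of the 6 fits with an array left out, the one without treated array 1. The 3 targets that did not pass were PDR18, HXT9 and HXT11.

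Other transporters of drugs changed in both directions. Of 18 measured drug:proton antiporters, which export compounds in exchange for protons, 5 rose and 1 fell (median log2 change 0.108). TPO4, a polyamine exporter, read 1457, 1358 and 1654 in the controls and 2895, 2740 and 2703 with alachlor (1.87-fold, adjusted p = 0.00108), and TPO1, its relative, rose 1.55-fold (adjusted p = 0.00173). FLR1 and QDR3 had log2 changes of 0.54 and 0.56. The call of FLR1 was lost without treated array 2 (adjusted p = 0.072) or 3 (adjusted p = 0.0517), and that of QDR3 without control array 1 (adjusted p = 0.0557) or treated array 2 (adjusted p = 0.0704). Among 15 other ABC transporters the single call was a fall: PDR12, which exports weak organic acids, went from 4970, 4608 and 4727 to 2363, 2153 and 2963 (log2 -0.95 ± 0.117 SE, adjusted p = 0.00464). Its treated arrays lay further apart than its controls, and all of them were below every control.

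**Figure D3:**
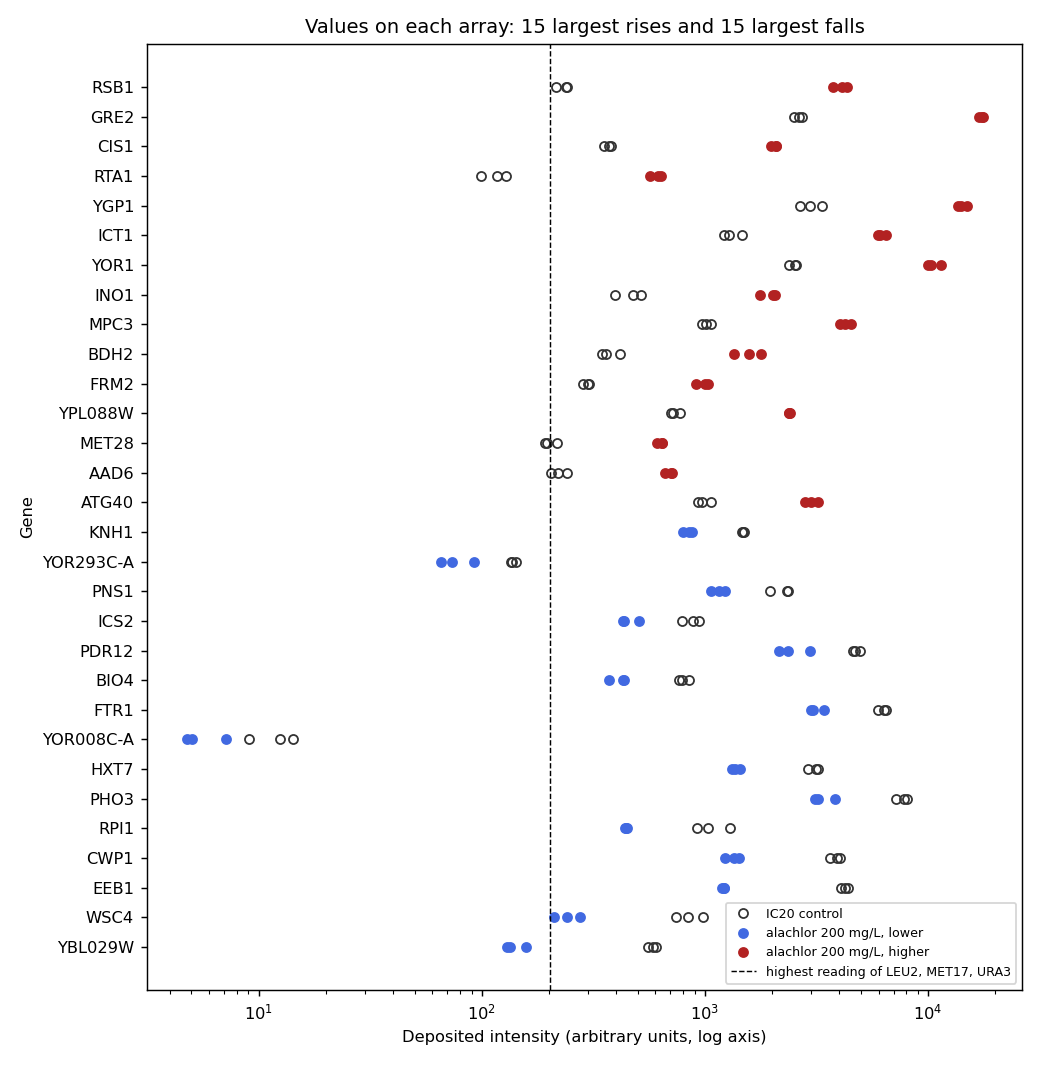
Intensity (log axis) of the 15 genes with the largest rises and the 15 with the largest falls, each on the 3 IC20 control arrays (open circles) and the 3 arrays with 200 mg/L alachlor (red higher, blue lower). The dashed line at 202.9 is the highest reading of LEU2, MET17 and URA3, and YOR293C-A and YOR008C-A lie left of it in both groups. Treated and control arrays do not overlap for any of these genes, which was a condition of their choice and was so for 30.8% of all genes.

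Reductases formed the second group of large rises. Of 13 measured carbonyl and alcohol reductases, 6 rose, all of them in all 6 fits with an array left out, and 1 fell (median log2 change 0.184). GRE2, which reduces methylglyoxal and other ketones with NADPH, read 2517, 2646 and 2714 in the controls and 17457, 16988 and 17551 with alachlor. The groups were far apart and each was narrow, a 6.60-fold rise (log2 2.72 ± 0.052 SE, adjusted p = 1.19e-06). BDH2, a putative butanediol dehydrogenase, went from 347, 359 and 416 to 1781, 1576 and 1345 (4.18-fold, adjusted p = 0.000118), while BDH1, the neighbouring butanediol dehydrogenase, had a log2 change of -0.52. The call of BDH1 was lost without control array 3 or treated array 2 (adjusted p = 0.0532 in each fit). GCY1, a glycerol dehydrogenase of the aldo-keto reductase family, rose 2.14-fold (adjusted p = 9.98e-05). ADH7, an alcohol dehydrogenase with a wide range of substrates, rose from below the level of the deleted genes, by at least 1.54-fold (adjusted p = 0.00028).

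Calls were also made among aryl-alcohol dehydrogenases and nitroreductase-like genes. Of 5 measured aryl-alcohol dehydrogenases, AAD6 and AAD4 were called higher, AAD4 on a shared probe set (list median 0.345). AAD6 read 240, 205 and 220 in the controls, close to the level of the deleted genes, and 665, 711 and 701 with alachlor (log2 1.64, adjusted p = 4.13e-05). The rise of AAD4 was 1.86-fold on a probe set that it shares with other genes (adjusted p = 0.000756). Its dimmer probe set, which is not a shared one, read a change of 0.349 on the log2 scale and did not pass (adjusted p = 0.133). The called rise is thus uncertain between AAD4 and the genes that share the probe set. YPL088W, a putative enzyme of the same kind, went from 771, 717 and 707 to 2381, 2397 and 2385 (3.26-fold, adjusted p = 1.14e-05), with the treated arrays almost equal. FRM2, a nitroreductase-like protein, went from 302, 299 and 284 to 1028, 1006 and 909 (3.32-fold, adjusted p = 2.43e-05), and its relative HBN1 rose 2.05-fold (adjusted p = 0.000756).

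FRM2 and HBN1 belong to a list of 27 measured targets of Yap1, of which 7 rose, 4 in all 6 fits with an array left out, and 1 fell (median 0.083). GPX2, a glutathione-dependent peroxidase, rose by only 0.36 on the log2 scale with a narrow spread (3338 ± 28.3 to 4285 ± 134, SD, n = 3, adjusted p = 0.00733). OYE3, an old yellow enzyme, had means of 104 and 167, both under the level of the deleted genes, and its call was lost without control array 1 (adjusted p = 0.0579) or treated array 2 (adjusted p = 0.0622). Of 21 genes of glutathione synthesis and transfer, 3 rose and 1 fell (median 0.058). GTT2, a glutathione transferase, read 363, 359 and 390 in the controls and 594, 628 and 549 with alachlor (1.59-fold, adjusted p = 0.00189). ECM4, an omega-class transferase, rose 1.87-fold (adjusted p = 0.000938), and GTO3, of the same class, stayed under the level of the deleted genes in both groups.

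Among genes of membrane lipids, 1 change stood out by size. INO1, the inositol phosphate synthase that commits glucose to inositol and so to phosphatidylinositol, read 517, 396 and 478 in the controls and 1765, 2011 and 2053 with alachlor. The rise was 4.21-fold (log2 2.07 ± 0.112 SE, adjusted p = 9.06e-05), with treated arrays all far above the controls. It was 1 of 2 rises (8.33%, beside 5.19% of all genes) among 24 measured genes of inositol and phospholipid synthesis, whose median log2 change was -0.018. The other, OPI3, a phospholipid methyltransferase, lost its call in each of the 6 fits with an array left out, with adjusted p between 0.0857 and 0.139.

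Sphingolipid genes moved by less. Of 27 measured, 6 rose and 2 fell, with a median log2 change of 0.009 that turned negative when arrays were centred on their medians (-0.015) or quantile-normalised (-0.009). LAC1, a ceramide synthase subunit, read 8630, 8268 and 8819 in the controls and 11033, 11191 and 11134 with alachlor (1.30-fold, adjusted p = 0.00632), and SUR2, which hydroxylates the long-chain base, rose 1.36-fold (adjusted p = 0.00597). YPC1, a ceramidase, changed by 0.50 on the log2 scale and lost its call without treated array 2 (adjusted p = 0.0533). Of 25 measured genes of ergosterol synthesis, 4 passed as higher, none of them in all 6 fits with an array left out. ERG3, the C-5 sterol desaturase, had the largest of these log2 changes, 0.45, and lost its call without control array 1 (adjusted p = 0.0743), control array 3 (adjusted p = 0.0732) or treated array 2 (adjusted p = 0.0625).

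Of 22 measured genes in the list of fatty acid synthesis, the 1 that passed was EEB1. It joins ethanol to medium-chain fatty acids, a step of ester synthesis rather than of fatty acid synthesis itself. EEB1 read 4382, 4056 and 4220 in the controls and 1194, 1220 and 1218 with alachlor, a log2 change of -1.80 ± 0.052 SE (adjusted p = 9.16e-06), the fall with the smallest adjusted p of all the falls. Of 28 measured genes of the peroxisome and of fatty acid breakdown, 4 rose and 1 fell (median 0.047). CRC1, the mitochondrial carnitine carrier, went from 290, 264 and 281 to 625, 613 and 631 (2.24-fold, adjusted p = 5.51e-05). YAT2, a carnitine acetyltransferase, rose 1.64-fold (adjusted p = 0.000435), while ECI1, an isomerase of the peroxisome, fell by 0.52 on the log2 scale (adjusted p = 0.00209).

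At the cell surface, rises and falls of more than 2-fold stood side by side. Of 47 measured genes of wall integrity and wall proteins, 7 rose and 4 fell (median 0.050), and 2 of the rises and 3 of the falls held in all 6 fits with an array left out. YGP1, a secreted glycoprotein, read 2660, 2959 and 3352 in the controls and 14922, 13677 and 14100 with alachlor (4.78-fold, adjusted p = 2.99e-05). CWP1, a mannoprotein bound to the wall, went the other way, from 3633, 3901 and 4016 to 1421, 1357 and 1224 (log2 -1.53, adjusted p = 5.51e-05). WSC4, of the family of wall stress sensors, went from 739, 839 and 982 to 275, 240 and 211 (log2 -1.82 ± 0.133 SE, adjusted p = 0.000389), so that its treated arrays came close to the level of the deleted genes. KNH1, outside the list, which acts in beta-1,6-glucan synthesis, fell by 0.82 on the log2 scale (adjusted p = 0.000269), and KTR2, a mannosyltransferase, fell by 0.54 (adjusted p = 0.00153).

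Several calls in the wall list were lost when single arrays were left out. SLT2, the MAP kinase of the wall integrity pathway, had a log2 change of 0.31 and lost its call in 5 of the 6 fits with an array left out, all except the one without control array 3 (adjusted p between 0.0667 and 0.104). YPS3 and PST1, wall proteins that the pathway is known to raise, and GSC2, a glucan synthase, had log2 changes of 0.51, 0.40 and 0.40. Each lost its call without control array 1, control array 2 or treated array 2, among other fits (adjusted p between 0.0573 and 0.126). YPS6, a protease of the same family as YPS3, kept its call in all 6 fits, with a rise of 1.54-fold from 312 ± 15.1 to 481 ± 36.8 (SD, n = 3, adjusted p = 0.00402). GSC2 is 1 of the called genes that moved most with the length trend, to 0.31 after its removal.

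Iron genes changed in both directions. Of 33 measured genes under the iron-responsive factors Aft1 and Aft2, 9 rose and 3 fell (median 0.172), with 5 of the rises and 2 of the falls in all 6 fits with an array left out. FIT2, a wall mannoprotein that retains iron-siderophores, read 1725, 1814 and 1592 in the controls and 4192, 4284 and 3638 with alachlor (2.36-fold, adjusted p = 0.00028). TIS11, an RNA-binding protein that degrades transcripts of iron-using proteins, went from 451, 480 and 485 to 1237, 1077 and 1046 (2.37-fold, adjusted p = 0.000183). HMX1, the heme oxygenase, rose 2.27-fold (adjusted p = 0.000439), and ARN1, a siderophore transporter, rose 1.84-fold (adjusted p = 0.00482).

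Other genes of iron uptake fell or gave no stable call. FTR1, the high-affinity permease, read 5967, 6463 and 6361 in the controls and 3412, 3049 and 2976 with alachlor (log2 -0.99 ± 0.070 SE, adjusted p = 0.000334). Its partner FET3, the multicopper oxidase, read 11269 ± 1238 and 9754 ± 719 (SD, n = 3), and its arrays overlapped between the groups (adjusted p = 0.261). FET4, the low-affinity transporter, fell by 0.81 on the log2 scale (adjusted p = 0.00166). VHT1, the biotin permease, which shares this regulation, had a log2 change of -0.66 and lost its call without control array 1 (adjusted p = 0.0524). SIT1, a siderophore transporter with a log2 change of 0.47, lost its call in each of the 6 fits (adjusted p between 0.055 and 0.126).

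Phosphate, zinc and vitamin genes gave further groups. Of 22 measured genes of phosphate starvation, 5 rose, 4 of them in all 6 fits with an array left out, and the median log2 change was 0.243. PHO5, the repressible acid phosphatase, read 1017, 1123 and 1216 in the controls and 3465, 2943 and 3018 with alachlor (2.81-fold, adjusted p = 0.000183). PHO11, another secreted phosphatase read on a probe set shared with near-identical genes, rose 2.19-fold (adjusted p = 8.25e-05), and PHM6, of unknown function, rose 2.07-fold (adjusted p = 0.00037). PHO89, a sodium-phosphate cotransporter, went from 2377, 1647 and 2112 to 3940, 5066 and 5559 (2.38-fold, adjusted p = 0.00719), with the lowest control on control array 2. PHO84, the main phosphate transporter, read 12589 ± 1565 and 16122 ± 1274 (SD, n = 3) and did not pass (adjusted p = 0.0949).

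Of 22 measured genes of thiamine, pyridoxine and biotin, 4 rose and 4 fell (median 0.072). PHO3, the acid phosphatase that acts on thiamine phosphates and neighbours PHO5, read 7175, 8011 and 7816 in the controls and 3845, 3205 and 3110 with alachlor (log2 -1.18 ± 0.094 SE, adjusted p = 0.00058). BIO4, which makes dethiobiotin, went from 787, 846 and 767 to 428, 436 and 373 (log2 -0.96, adjusted p = 0.000635). VHR1, the activator of biotin uptake genes, rose 1.88-fold (adjusted p = 0.0035), and SNO1, of pyridoxine synthesis, rose 1.48-fold (adjusted p = 0.00463). Of 14 measured zinc genes 2 rose and 2 fell, and the rises, INO1 and PST1, also stand in lists described above.

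Among nitrogen genes, rises outnumbered falls. Of 42 measured genes of nitrogen catabolite repression and amino acid permeases, 12 rose and 1 fell, with a median log2 change of 0.227. Of the rises, 5 held in all 6 fits with an array left out, and 6 were called without treated array 1 and control array 2 together. MEP2, the high-affinity ammonium permease, read 4641, 4586 and 4656 in the controls and 10575, 9745 and 9781 with alachlor (2.17-fold, adjusted p = 5.51e-05). DAL3, an enzyme of allantoin breakdown, went from 370, 449 and 368 to 836, 759 and 734 (1.97-fold, adjusted p = 0.00164). GAT1, a GATA-type activator of the group, rose 1.51-fold (adjusted p = 0.00601), and UGA1, which breaks down gamma-aminobutyrate, rose by 0.58 on the log2 scale (adjusted p = 0.00164). CAR2, the ornithine aminotransferase of arginine breakdown, fell by 0.77 on the log2 scale (adjusted p = 0.00478). GAP1, the general amino acid permease, had a log2 change of 0.44, called in 2 of the 6 fits and lost without control array 1, control array 2, treated array 2 or treated array 3 (adjusted p between 0.0752 and 0.0997).

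The synthesis and uptake of methionine and cysteine gave 9 rises and 1 fall among 40 measured genes (median 0.093), with 5 of the rises in all 6 fits with an array left out. MET28, part of the activator of sulfur genes, read 192, 218 and 197 in the controls, at the level of the deleted genes, and 643, 610 and 642 with alachlor, a rise of at least 3.11-fold (adjusted p = 2.88e-05). STR3, a cystathionine lyase, went from 421, 392 and 475 to 1007, 957 and 895 (2.22-fold, adjusted p = 0.000408). MET2, which activates homoserine for methionine synthesis, rose at least 1.70-fold (adjusted p = 0.000323). MMP1, a permease of S-methylmethionine, had a log2 change of -0.59, with its call lost without control array 1 (adjusted p = 0.0759) or control array 3 (adjusted p = 0.0788). The cells lack MET17, which makes homocysteine from sulfide, in all groups.

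Further biosynthetic lists were counted in the same way. Of 54 measured genes of amino acid synthesis under Gcn4, 3 rose (5.56%), near the 5.19% of all genes called higher. Of these rises, 1 held in all 6 fits with an array left out (median of the list 0.073). Of 25 measured purine and one-carbon genes, limma called none, with 2 higher and 0 lower at an unadjusted p under 0.05, which 13.2% of all genes reached as higher and 11.0% as lower. In pyrimidine synthesis 4 of 16 rose, 3 of them in all 6 fits, and 1 fell (median 0.099). URA2 read 15671, 14906 and 15168 in the controls and 20251, 20152 and 21468 with alachlor (1.35-fold, adjusted p = 0.0044), and FUI1, the uridine permease, rose 1.40-fold (adjusted p = 0.00526). URA3, which acts later in the same path, is deleted in all groups.

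In carbon metabolism the largest change was that of MPC3, a subunit of the mitochondrial pyruvate carrier known from growth on respired carbon. MPC3 read 967, 1012 and 1061 in the controls and 4495, 4262 and 4028 with alachlor (4.21-fold, adjusted p = 1.14e-05). It was 1 of 9 rises, beside 1 fall, among 37 measured genes of the TCA and glyoxylate cycles and gluconeogenesis (median 0.076), of which 3 held in all 6 fits with an array left out. PYC1, a pyruvate carboxylase, went from 6552, 6091 and 6710 to 9604, 9630 and 11138 (1.57-fold, adjusted p = 0.00413), and CIT3, a mitochondrial citrate synthase, rose at least 1.34-fold from below the level of the deleted genes (adjusted p = 0.000315). PCK1, which starts gluconeogenesis, had a log2 change of 0.65 but lost its call without control array 1, control array 3, treated array 1 or treated array 2 (adjusted p between 0.0532 and 0.0923).

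Calls among genes of sugar uptake went both ways. Of 22 measured genes of hexose transport and glucose sensing, 4 fell and 3 rose, with 3 of the falls and no rise called in all 6 fits with an array left out. HXT7, a high-affinity hexose transporter read on a probe set shared with a near-identical gene, went from 3131, 2895 and 3206 to 1326, 1365 and 1442 (log2 -1.16, adjusted p = 9.06e-05). HXT2, also of high affinity, went from 10172, 9427 and 9975 to 5750, 5894 and 5580 (log2 -0.78, adjusted p = 0.000323). HXT4 had a log2 change of -0.55, with its call lost without control array 1 (adjusted p = 0.059) or control array 3 (adjusted p = 0.0647). Of 33 measured genes of glycolysis and fermentation, 6 rose and 3 fell (median 0.050), among them GPM2, a minor phosphoglycerate mutase, which rose 1.71-fold (adjusted p = 0.00028), and ALD6, the main cytosolic acetaldehyde dehydrogenase, which fell by 0.54 on the log2 scale (adjusted p = 0.00301). Of 39 measured genes of the respiratory chain and ATP synthase, 1 rose and 2 fell (7.69% called, beside 8.15% of all genes). None of these calls held in all 6 fits.

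Among 42 measured genes of reserve carbohydrate and general stress, 7 rose and 1 fell (median 0.079), 4 of the rises in all 6 fits with an array left out. YGP1, described above, also stands in this list. YRO2, a plasma membrane protein related to the heat shock protein Hsp30, read 1067, 948 and 1226 in the controls and 1953, 2392 and 2182 with alachlor (2.02-fold, adjusted p = 0.0031). XBP1, a stress-induced repressor, rose from a mean of 95.7 to 204, the latter just above the level of the deleted genes (adjusted p = 0.000104), and the size of its rise is not given because the controls lay under that level. HSP12, a small membrane-binding heat shock protein, rose 1.62-fold (adjusted p = 0.00603), and TSL1, of trehalose synthesis, had a log2 change of 0.76 with its call lost without control array 1 (adjusted p = 0.0801), treated array 2 (adjusted p = 0.0759) or treated array 3 (adjusted p = 0.0647).

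Few genes of protein folding and turnover passed the test. Of 39 measured chaperones and heat shock genes 1 rose, HSP31 (1.43-fold, adjusted p = 0.00374), a methylglyoxalase with chaperone activity. None was called lower. The list's median log2 change was -0.117, and 30 of the 39 changes were below 0, beside 2722 of 5449 over all genes. At an unadjusted p under 0.05, 11 of the 39 were lower, against 11.0% of all genes. With the length trend removed 6 were called lower, beside 4.97% of all genes. In the proteasome list of 38 genes the rises were RPN4, the activator of proteasome genes, and UBI4, the polyubiquitin gene, while the median was -0.045. RPN4 read 2358, 1812 and 2402 in the controls and 4035, 4706 and 4936 with alachlor (2.09-fold, adjusted p = 0.0044), and UBI4 rose 1.46-fold (adjusted p = 0.00352). No subunit gene of the list passed the test. Outside these lists, ATG40, a receptor for the autophagy of endoplasmic reticulum, went from 971, 930 and 1070 to 2814, 3195 and 2992 (3.03-fold, adjusted p = 5.51e-05). Of 29 measured genes of autophagy and vacuolar hydrolases, 3 rose (10.3%, beside 5.19% of all genes), none of them in all 6 fits with an array left out. Of 25 measured genes of the DNA damage response, 1 passed as lower (4.0%, beside 2.95% of all genes). Its call did not hold in all 6 fits.

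Genes of translation mostly had small log2 changes below 0, few of which passed the test. Limma called none of 128 cytosolic ribosomal protein genes, and 3 were lower at an unadjusted p under 0.05, against 11.0% of all genes. Their median log2 change was -0.061, and 126 of the 128 changes were below 0, beside 2722 of 5449 over all genes. For 49 of them all treated arrays lay below all controls, a pattern seen for 14.5% of all genes. The median was -0.037 with the length trend removed and -0.085 with arrays centred on their medians. Of 106 measured genes of ribosome biogenesis, 3 fell (2.83%, near the 2.95% of all genes called lower), and the median was -0.108. Changes below 0 numbered 102, and for 36 genes the treated arrays lay below the controls (14.5% of all genes). DBP8, an RNA helicase of that list, had a log2 change of -0.35 and kept its call in 1 of the 6 fits with an array left out, the one without control array 3.

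Mitochondrial ribosomal protein genes had the lowest median of these lists, -0.163 over 66 genes. Of their changes 62 were below 0, beside 2722 of 5449 over all genes. For 42 genes all treated arrays lay below all controls, against 14.5% of all genes. Of the 66 genes, 3 were called lower (4.55%, beside 2.95% of all genes), none in all 6 fits with an array left out. At an unadjusted p under 0.05, 35 of the 66 were lower, against 11.0% of all genes. With the length trend removed 12 were called lower, beside 4.97% of all genes. MRP4, a protein of the small mitochondrial subunit, read 2171, 2367 and 2454 in the controls and 1877, 1764 and 1745 with alachlor (log2 -0.38, adjusted p = 0.019), and its call was lost without control array 2 (adjusted p = 0.0651), control array 3 (adjusted p = 0.071), treated array 2 (adjusted p = 0.0793) or treated array 3 (adjusted p = 0.0553). The 23 genes of RNA polymerases I and III gave no call, with 2 lower at an unadjusted p under 0.05. Among 39 genes of the G1 and S phases and 30 of G2 and mitosis limma called none either, with 3 and 6 higher and 0 and 1 lower at an unadjusted p under 0.05, beside 13.2% and 11.0% of all genes.

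**Figure D4:**
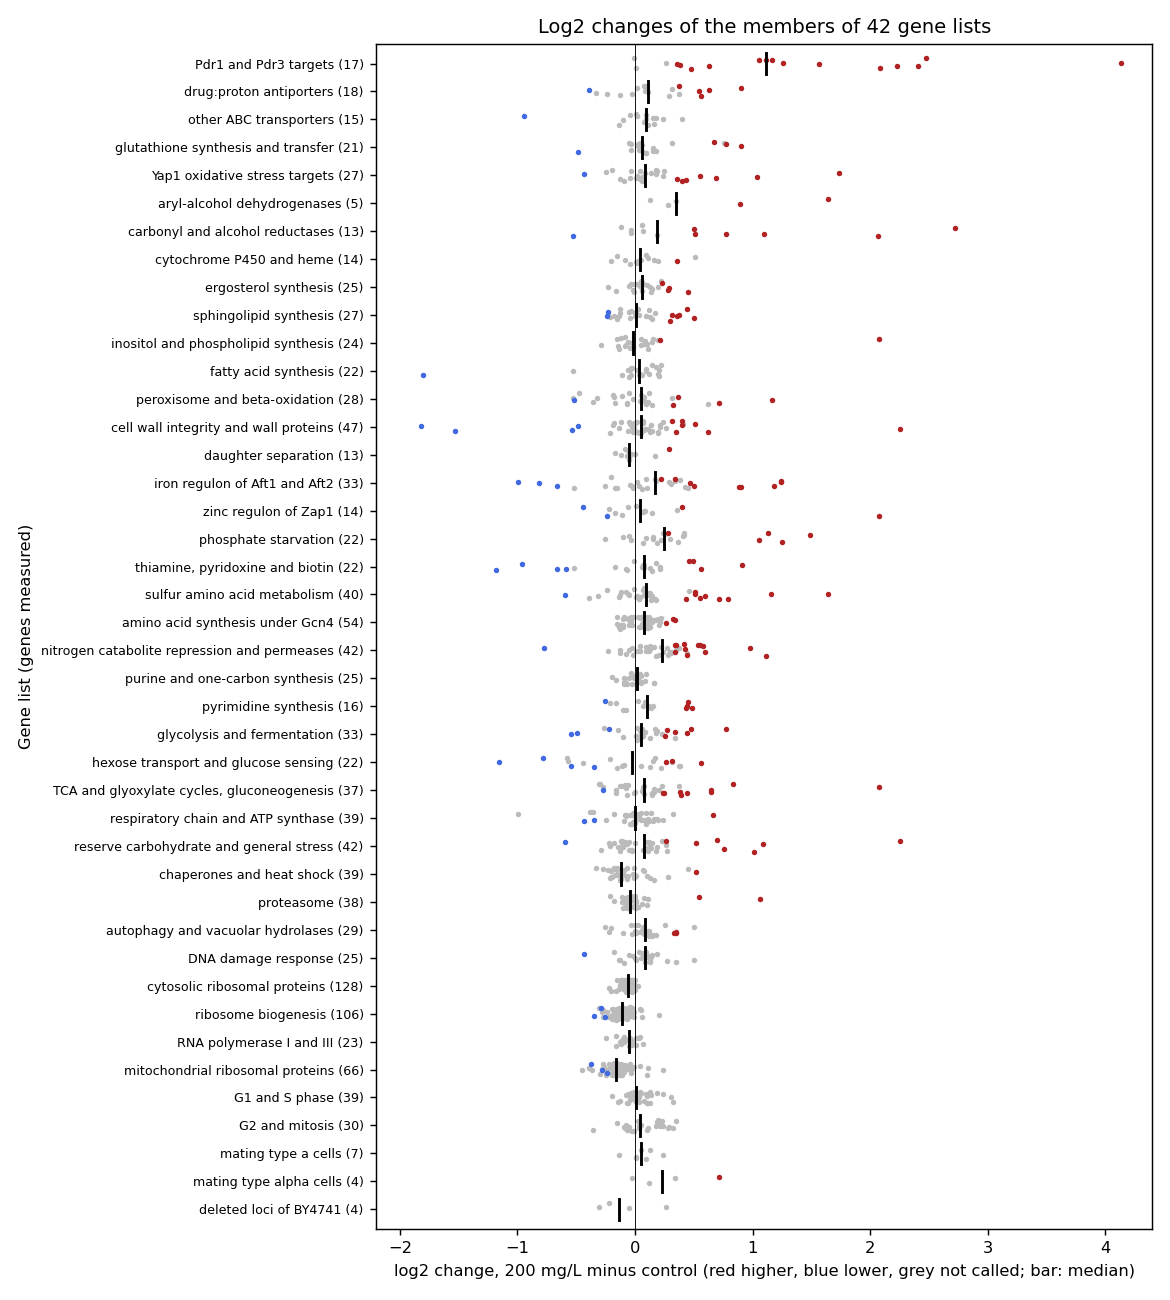
Log2 changes at 200 mg/L of the measured members of 42 gene lists, with the number measured in parentheses; red points rose, blue points fell, grey points did not pass the test, and each bar is the list's median. The median of the Pdr1 and Pdr3 targets stands at 1.11, and those of the lists of translation lie slightly left of 0, at -0.061, -0.108 and -0.163 for cytosolic ribosomal proteins, ribosome biogenesis and mitochondrial ribosomal proteins.

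Most calls lay outside the 42 lists, which held 1270 measured genes. Of the 4179 genes in no list, 146 rose and 119 fell (6.34% called). YBL029W, of unknown function, read 559, 603 and 585 in the controls and 157, 134 and 130 with alachlor, a fall of at least 2.87-fold to below the level of the deleted genes (adjusted p = 2.99e-05). RPI1, a putative transcriptional regulator, went from 1034, 918 and 1300 to 444, 449 and 438 (log2 -1.27, adjusted p = 0.00152), with treated arrays closer together than the controls. PNS1, a choline transporter-like protein, and ICS2 fell by 0.94 each on the log2 scale (adjusted p = 0.00164 and 0.00165). YLL056C, of unknown function, rose 2.98-fold (393, 381 and 437 to 1304, 1150 and 1150, adjusted p = 6.71e-05). Of all calls, 19 of the higher and 16 of the lower had both group means at or under the level of the deleted genes, so that neither mean measures an amount of transcript. STE3, the receptor for the a pheromone, is 1 of these, with means of 115 and 190.

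Setting the response beside that of the 110 mg/L experiment showed the same direction for most genes. Of the 283 genes higher at 200 mg/L, 268 had a positive log2 change at 110 mg/L, and of the 161 lower genes 148 had a negative one. The experiments share no arrays. The median log2 change of the higher genes was 0.474 at 200 mg/L and 0.245 at 110 mg/L, and that of the lower genes was -0.389 and -0.159. Since the genes were picked by their values at 200 mg/L, their larger change there is partly set by the choice. Spearman's rho between the log2 changes was 0.537 over all 5449 genes and 0.866 over the 444 called. Dose and experiment cannot be told apart, because each dose was run with its own cultures and controls.

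The difference of the changes was tested in a fit over all 12 arrays. It passed for 68 genes (1.25%), with 54 more positive at 200 mg/L (0.991%) and 14 more negative (0.257%). All 54 were called higher at 200 mg/L, and 13 of the 14 were called lower. The difference contains the same change at 200 mg/L, so this overlap is partly set by the measure. INO1 differed most, with a log2 change of 0.02 at 110 mg/L against 2.07 (difference 2.06, adjusted p = 9.89e-06). PDR10 changed by -0.18 at 110 mg/L against 1.16 (adjusted p = 0.000171), and AAD6 by 0.18 against 1.64 (adjusted p = 9.89e-06). The difference also passed for RTA1 (adjusted p = 0.000211), whose size is not given here because its control readings lay under the level of the deleted genes. Among reductases and their like, YPL088W changed by 0.64 against 1.71 (adjusted p = 9.89e-06) and GRE2 by 1.85 against 2.72 (adjusted p = 2.46e-05). MEP2 changed by 0.39 against 1.11 (adjusted p = 8.19e-05), and FTR1 by -0.21 against -0.99 (adjusted p = 0.000402).

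For other genes the difference between the experiments did not pass the test. PDR5 changed by 0.97 at 110 mg/L and 1.11 at 200 mg/L (difference 0.14, adjusted p = 0.274), SNQ2 by 0.73 and 1.05 (difference 0.32, adjusted p = 0.0965), and YGR035C by 1.30 and 1.56 (difference 0.27, adjusted p = 0.372). ALD6 changed by -0.55 and -0.54, PDR12 by -1.11 and -0.95, and TIS11 by 1.57 and 1.24 (adjusted p of the difference 0.976, 0.761 and 0.267). A p that misses the threshold does not show that these genes responded alike. The pumps of the drug resistance network thus included genes whose difference between the experiments passed the test (PDR10, YOR1 with 1.36 and 2.08) and genes for which it did not.

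**Figure D5:**
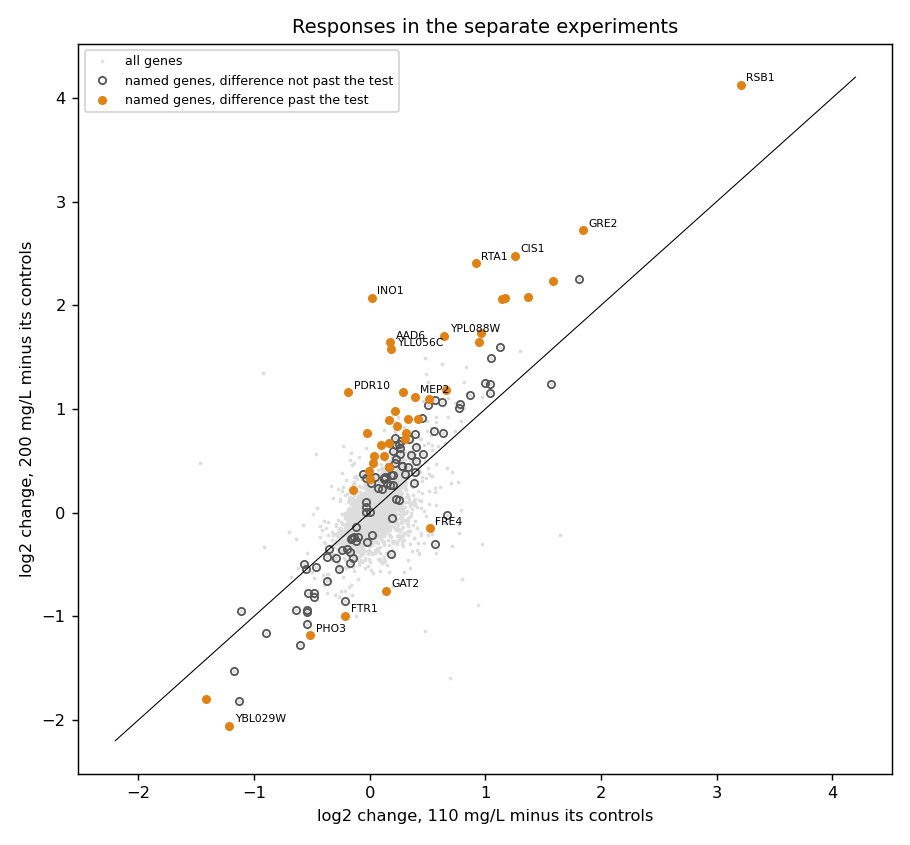
Log2 change of each gene at 110 mg/L against its controls (horizontal) and at 200 mg/L against its controls (vertical), with equal changes on the diagonal; light points are all genes, open circles named genes whose difference did not pass the test, and orange circles named genes whose difference did. INO1 lies far above the diagonal, at 0.02 and 2.07, and YBL029W below it.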

How the data were processed

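The intensities, 1 linear value per probe set and array, were made by the authors from labelled RNA hybridised to Affymetrix arrays, per the labels' protocols, and are used as deposited. Affymetrix Expression Console is listed per the submitters' processing notes, without a version or role. The background correction, normalization and probe set summary are not given in the sources used here. Array medians on the 6 arrays lay between 1561.3 and 1613, and 15 of 34296 values were exactly 1. Replicates are biological per the labels.

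Probe sets were named from the platform annotation, with 12 symbols updated from RefSeq. The 218 probe sets not tied to 1 gene stayed out of the gene test. Of the 47 genes with several probe sets the brightest was used, and 49 were left out. Probe sets shared by related genes read 100 genes and cross-hybridising ones 17, and those values are uncertain between the genes.

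Log2 values without a pseudocount were fitted with limma 3.58.1 in R 4.3.3 (2 group means, eBayes, two-sided, Benjamini-Hochberg over 5449 genes, adjusted p under 0.05) on the 6 arrays alone. The difference between the doses was fitted on all 12 arrays. Precision is limited by 3 arrays a group. The smallest p of an exact permutation of 3 against 3 is 0.1, so no such test was used. Coding length is the RefSeq span from start to stop codon, introns included. Its trend was removed from each array by lowess with a span of 0.3. The alternatives were leaving out each array, all 12 arrays in the fit, array weights, a trended robust prior, quantile or median scaling, a pseudocount of 16, leaving out the dimmest 20% of genes, the dimmest probe set of a gene, all probe sets, a replicate block, stricter thresholds and removal of the length trend. The code was tested on simulated data with independent values and no trend on coding length, so that test does not cover such a trend.

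Named genes were the 15 largest rises and the 15 largest falls past the test whose treated and control arrays did not overlap, and up to 4 called members per list. The mating type and deleted genes, the 5 largest differences between the doses in each direction, and the 5 called genes that moved most with the length trend were also named. The genes, lists and tests were chosen with earlier results of these data known.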

Additional observations from a re-analysis of the deposited data

Results flagged for a closer look

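Signals outside the gene test came from the 218 probe sets that the annotation used here ties to no single gene. In a fit over all probe sets 14 of them rose and 9 fell (10.6% called). Probe set 1776865_at read a mean of 145 in the controls, under the level of the deleted genes, and 7945 with 200 mg/L alachlor (fitted log2 change 5.773, adjusted p = 8.31e-08). That is at least 39.2-fold. The fitted rise of RSB1, the largest of the named genes, was 17.5-fold, from control readings just above the same level. The log2 changes of 3 others exceeded 1: 2.024 for 1774184_at (means 870 and 3525), 1.287 for 1776127_at (1376 and 3358) and 1.015 for 1778857_at (1899 and 3842). For each of these 4 the treated arrays lay above all controls. They are unnamed here.

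The log2 change at 200 mg/L minus that at 110 mg/L passed the test of the difference for 10 named genes with the largest values in either direction. On the positive side it was 2.056 for INO1, 1.485 for RTA1, 1.467 for AAD6, 1.389 for YLL056C and 1.345 for PDR10. On the negative side it was -0.898 for GAT2, -0.843 for YBL029W, -0.782 for FTR1, -0.673 for FRE4 and -0.668 for PHO3. GAT2, a GATA-type factor, had an adjusted p of 0.05 after rounding and lost the call in each fit with 1 array left out (adjusted p between 0.0596 and 0.142), except the one without 200 mg/L array 1 (adjusted p = 0.00952). FRE4, a siderophore reductase, did not pass at 200 mg/L (means 248 and 223, adjusted p = 0.241), and its log2 change at 110 mg/L was 0.52. Control readings of RTA1 and treated readings of YBL029W lay under the level of the deleted genes, and control readings of AAD6 and FRE4 close to it, so that the sizes of their differences rest partly on readings with no amount of transcript behind them.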

How the results depend on the processing

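Among 2863 comparisons of a named gene under another setting, 2437 were counted as unchanged, 416 lost the call and 10 gained one. No named gene that the main fit called changed direction. For named genes not called in the main fit, a change of sign was counted as unchanged. The stricter thresholds reuse the main fit, so no direction could change there. The counts at 200 mg/L moved more. Leaving out 1 array gave 190 to 307 genes (129 to 205 higher, 56 to 104 lower). The 12-array fit gave 971 (546 higher, 425 lower), array weights 746 (438, 308), removal of the length trend 694 (423, 271) and its removal within groups 750 (456, 294). An adjusted p under 0.01 gave 157 (114, 43) and a 2-fold minimum 54 (46, 8), both stricter by construction. Leaving out control array 2 and treated array 1 together, chosen after seeing the data, gave 227 (153, 74). Quantile scaling gave 454 (263, 191) and median centring 438 (248, 190).

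For the difference between the doses, leaving out 1 array gave 39 to 68 genes (34 to 54 more positive, 5 to 14 more negative), array weights 393 (190, 203, with weights that stopped before convergence), length removal within groups 103 with 27 more negative, p under 0.01 32 (29, 3), and the 2-fold minimum 8 (8, 0). No label says whether a replicate number marks a shared culture or day. Deviations of same-numbered arrays correlated at -0.615, -0.196 and 0.144 at 200 mg/L and at -0.322, -0.01 and -0.134 at 110 mg/L. These values cannot decide whether arrays are paired. Deviations within a group sum to 0, and at 200 mg/L they also carry the trend on coding length. With the replicate block 170 genes were called at 200 mg/L (125 higher, 45 lower) and 21 for the difference (19, 2), where GAT2, PHO3 and YBL029W were no longer called (adjusted p = 0.213, 0.138 and 0.0504). Why the counts differ between settings was not tested, beyond the fewer arrays, the stricter thresholds and the smaller spread after length removal. Signals under 202.9 set the limit for dim genes.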
